A study of Mus musculus with 27 samples.

Results

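The mucosa behind a closed nostril was compared with the mucosa behind the open nostril of the same mice, probe by probe. All arrays whose titles name the occluded or the open side were taken, which gave 18 of the 27 arrays of the study and 29922 probes on each. The animals were female FVB mice, 25 days old, in which 1 nostril had been sealed by cautery (unilateral naris occlusion). Each side is represented by 3 biological replicates, and each biological replicate by 3 arrays that were averaged to 1 value. The other 9 arrays hold mucosa of mice of the same strain, sex and age that had received a sham cautery of the muzzle; they are called normal here and are given as background. The open side is not an untreated control, since it belongs to a mouse with a sealed nostril. The study's design text describes both sides as repeated measures of the same individuals, and equal title numbers were read as 1 mouse; that reading comes from the titles, and the labels do not state how long the nostril had been closed.

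The olfactory mucosa covers the rear of the nose and contains ciliated olfactory sensory neurons, the sustentacular cells that support them, basal stem cells that replace them, and secretory glands. In an olfactory neuron an odorant receptor acts through the G protein Golf, encoded by Gnal, and the adenylyl cyclase Adcy3 to raise cAMP, which opens the channel that contains Cnga2; calcium then enters, and sodium-calcium exchangers carry it out again. Closing a nostril removes most airborne odor, and also airflow, from the mucosa on that side, and a set of neuronal genes is known to depend on this activity, among them the adhesion molecules Kirrel2 and Kirrel3, which olfactory axons display.

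Values are log2 intensities after quantile normalization, and differences are occluded minus open with the standard error (SE) of the fit, n = 3 on each side. The median intensity of the 18 arrays lay between 123 and 269, between 8.91% and 18.2% of the probes of an array lay below its noise limit, and between 36 and 80 were saturated. Repeat arrays of a replicate correlated with a median r of 0.963, the sides of 1 mouse at 0.955 and the sides of different mice at 0.946. The marker gene of mature olfactory neurons, Omp, was saturated at its brighter probe (occluded side, 9 of 9 arrays; open side, 8 of 9); its second probe had means of 14.05 and 14.08. The tissue label thus rests on a strongly detected neuronal marker on both sides. In whole mucosa, fewer cells of a type and less RNA per cell cannot be told apart.

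In limma, an adjusted p of 0.05 was passed by 66 of the 29922 probes, which is 0.221% of all probes. Higher on the occluded side were 53 (0.177%) and lower were 13 (0.0434%). With 1 probe per gene, the brightest, 44 of 16637 genes passed (0.264%). An unadjusted p under 0.05 was reached by 924 genes (5.55%), 564 higher (3.39%) and 360 lower (2.16%). All 66 probes had 1 sign in the 3 mice, and the 3 occluded and 3 open values did not overlap, which holds for 2004 of all probes (6.7%), 1124 higher (3.76%) and 880 lower (2.94%). By gene, 1144 did not overlap (6.88%). Of the probes past the threshold, 44 of the 53 higher and 11 of the 13 lower ones did not overlap over the 9 single arrays of each side either, against 169 of all probes (0.565%). The 66 were picked by a fit to these same values, so their separation is part of the selection and no further support. Repeat arrays are not further mice. A difference of at least 2-fold in the same direction in all 3 mice was found for 148 probes (0.495%), 92 higher and 56 lower, and 57 of these were among the 66. The 148 were not filtered by signal, and some, such as Adarb2, lay below noise on all 9 arrays of each side. Among the 66, 3 higher probes lay below noise on 5 or more of 9 occluded arrays. So did 2 lower probes on the open arrays. The size of such differences is uncertain. Across all probes the median difference was 0.0042, and the SE of a probe had a median of 0.22.

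The number of probes past the threshold depended on the block, the scaling and the mice that entered. In the fit of all 9 values, 1852 of the 29922 probes (6.19%) had an unadjusted p under 0.05. A share of 0.05 would be reached on average if no probe differed. With each mouse as a fixed replicate block, fitted to the 6 values of both sides alone, 0 probes passed, and 1705 had an unadjusted p under 0.05. Without normalization 0 passed as well (714 unadjusted), and without any block 3 passed. Without replicate 1 none passed (0, with 761 unadjusted), without replicate 2 there were 35, and without replicate 3 there were 6. The consensus correlation between the values of a mouse was -0.242 without replicate 1, against 0.389 with all replicates. The differences of S100a5, Golm1 and Luc7l without replicate 1 were -1.91, 3.10 and 1.81, against -2.07, 3.14 and 2.26 with all replicates. Every adjusted p below belongs to the fit of all 9 values with the mouse as a random block, unless a left-out replicate is named.

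**Figure D1:**
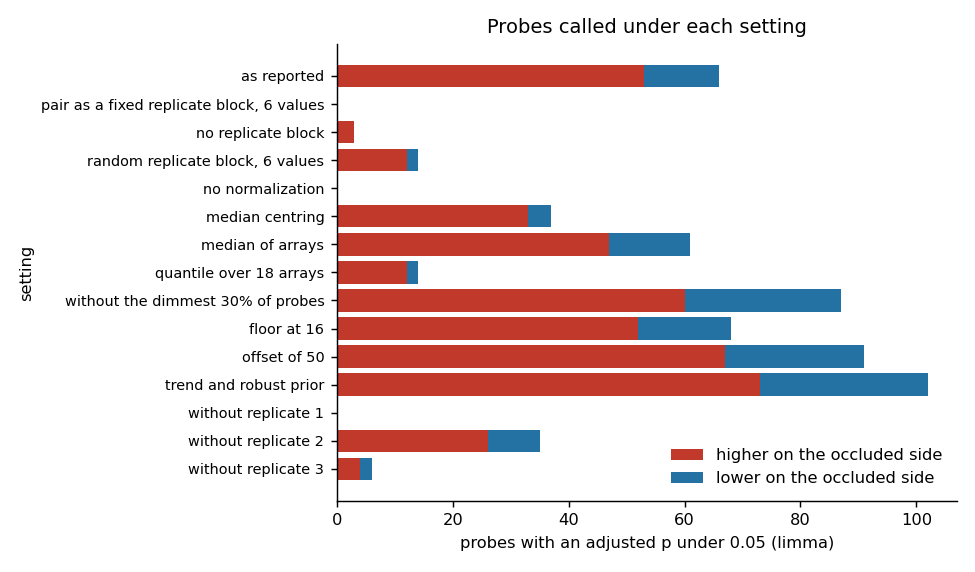
Number of probes with a limma adjusted p under 0.05 (horizontal axis) under each setting (vertical axis), split into probes higher (red) and lower (blue) on the occluded side. The count was 66 as reported, 0 under 3 settings (fixed pair block, no normalization, without replicate 1) and 102 with a trended, robust prior.

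The genes that fell behind the closed nostril were few and could be sorted by what they encode. A first group was neuronal. S100a5, which binds calcium, is made by mature olfactory neurons. Its log2 intensity was 13.40, 13.76 and 14.27 in the occluded samples and 15.79, 15.91 and 15.93 in the open samples, and the normal samples read 15.99, 15.92 and 15.96. The sides did not overlap. Open and normal mucosa lay close together, but the probe was saturated on 7 of 9 normal arrays and on 5 of 9 open ones. Saturation caps both, so their closeness does not show that they were equal. S100a5 fell by 2.07 ± 0.18 log2 units (SE; limma adjusted p = 0.0095). The probe was saturated on 5 of 9 open arrays, so the size of the fall is a lower limit. Without replicate 2 or 3 the call held (adjusted p = 0.046 and 0.031), and without replicate 1 it was lost (0.60).

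Kirrel2, the homophilic adhesion molecule, read 7.24, 7.80 and 8.29 on the occluded side, 9.07, 10.05 and 9.90 on the open side and 9.60, 10.34 and 9.36 in normal mucosa. It fell by 1.89 ± 0.28 log2 units (limma adjusted p = 0.048). All occluded values lay below all open ones, and the mice differed in level by a similar amount on each side (SD 0.53 and 0.53). Its call was lost without replicate 1, 2 or 3 (adjusted p = 1.0, 0.10 and 0.098). Pcp4l1, a small relative of the calmodulin-binding protein Pcp4, read 14.08, 13.72 and 14.01 against 15.53, 15.01 and 15.23 and fell by 1.32 ± 0.15 (adjusted p = 0.017). The protocadherin gene Pcdh10, another homophilic adhesion molecule, read 8.28, 8.19 and 8.18 against 9.62, 9.25 and 9.32 and fell by 1.18 ± 0.13 (adjusted p = 0.017). The 3 occluded values of Pcdh10 were tightly grouped (SD 0.055), and those of Pcp4l1 less so (SD 0.19). The calls of Pcp4l1 and Pcdh10 were lost without any 1 of the replicates (adjusted p between 0.053 and 0.91).

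A second group was made of sodium-calcium exchangers, which carry calcium out of the cell. Slc24a1, the potassium-dependent exchanger first known from rod photoreceptors, read 6.62, 6.93 and 6.92 on the occluded side, 8.82, 8.32 and 8.59 on the open side and 8.87, 8.86 and 8.05 in normal mucosa. It fell by 1.75 ± 0.22 (limma adjusted p = 0.023). Slc8a1, a potassium-independent exchanger, was read by 4 probes. The brightest read 10.95, 10.88 and 11.01 against 12.58, 12.24 and 12.27 and fell by 1.42 ± 0.21 (adjusted p = 0.046), and a dimmer one read 6.75, 7.31 and 6.74 against 8.51, 8.25 and 8.39 and fell by 1.45 ± 0.19 (adjusted p = 0.025). The third had the same difference without passing (-1.42, adjusted p = 0.063), while the fourth differed by -0.19 (adjusted p = 1.0). Thus 3 of the 4 Slc8a1 probes gave nearly the same size. Without replicate 1 or 3 all of these calls were lost, and without replicate 2 only that of the dimmer Slc8a1 probe held (adjusted p = 0.029). In a list of 23 measured genes of calcium exchangers, pumps and channels these 2 had an unadjusted p under 0.05 (8.70%, against 5.55% of all genes), and the median of the list was 0.02. The exchanger Slc24a4, which is known as the one of olfactory cilia and is counted with the transduction cascade, not in this list, read 8.91, 9.03 and 8.82 against 8.32, 8.31 and 8.49 and so lay on the other side of 0 (0.55 ± 0.17, adjusted p = 0.52).

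Chil4, a secreted chitinase-like protein, had the largest fall of any named probe. It read 11.87, 11.27 and 11.45 on the occluded side, 15.08, 13.53 and 15.85 on the open side, and 13.92, 15.01 and 13.79 in normal mucosa. Each occluded value lay below each open and each normal value, while the open values spread far more than the occluded ones (SD 1.18 against 0.31). Chil4 fell by 3.29 ± 0.45 log2 units, or 9.78-fold (limma adjusted p = 0.035), with the probe saturated on 1 of 9 open arrays. A second Chil4 probe read 8.67, 8.77 and 9.07 against 11.60, 10.89 and 13.55 (-3.18 ± 0.58, adjusted p = 0.11). Without replicate 2 the call held (adjusted p = 0.033), and without replicate 1 or 3 it did not (1.0 and 0.10). Chil3, a close relative whose transcript is similar enough that a probe may read both, differed by -0.51 ± 0.42 (adjusted p = 0.99).

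The remaining named genes that fell were of other kinds. Dleu7, a gene of a region often deleted in lymphocytic leukaemia, read 5.11, 5.34 and 5.70 against 6.27, 6.85 and 7.13 and fell by 1.37 ± 0.19 (limma adjusted p = 0.035). It was a dim probe, and its difference was -0.77 when an offset of 50 was added to the intensities before log2. Pde6h, the inhibitory subunit of the cone phosphodiesterase, read 7.23, 7.0 and 6.99 against 8.08, 8.23 and 7.94 and fell by 1.01 ± 0.14 (adjusted p = 0.035). The calls of Dleu7 and Pde6h were lost without any 1 of the replicates (adjusted p between 0.090 and 1.0). The normal values of Pde6h were 7.03, 7.20 and 6.95, level with the occluded side, and it was the single exception among the 13 fallen probes, of which 12 had a normal mean nearer the open side. Sptssb, a small subunit of serine palmitoyltransferase, also passed, but its signal was under the noise limit on all 9 occluded arrays and on 6 of the 9 open ones, so no fold is given. Another 2 fallen probes are unnamed here, and 1 of them, mMC006727, fell by 1.99 ± 0.18 (adjusted p = 0.0095).

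**Figure D2:**
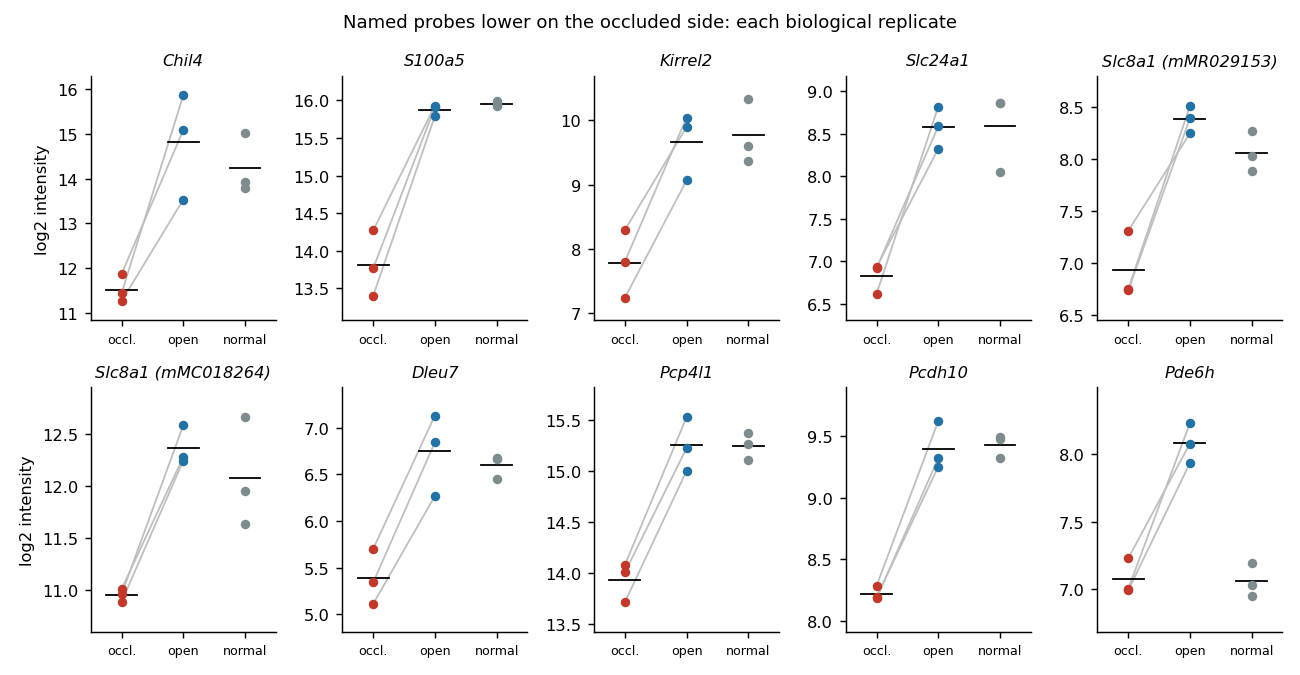
Log2 intensity (vertical axes, scaled for each panel) of the named probes that fell, for each biological replicate of the occluded side (occl.), the open side and normal mucosa. Grey lines join the sides of 1 mouse and black bars are means; the sides do not overlap in any panel, and Pde6h alone has its normal values at the level of the occluded side.

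The promoters of the 4 neuronal genes that fell are printed to show the sequence just upstream of their starts. They are from RefSeq on the GRCm38.p6 build, the 250 bases before the start of the gene, 5′ to 3′ on the strand of the gene. Capitals mark matches to the motifs searched. S100a5 lies at chr3:90608272-90608521 (+), Pcp4l1 at chr1:171196269-171196518 (-), Kirrel2 at chr7:30457516-30457765 (-) and Pcdh10 at chr3:45378148-45378397 (+).
S100a5: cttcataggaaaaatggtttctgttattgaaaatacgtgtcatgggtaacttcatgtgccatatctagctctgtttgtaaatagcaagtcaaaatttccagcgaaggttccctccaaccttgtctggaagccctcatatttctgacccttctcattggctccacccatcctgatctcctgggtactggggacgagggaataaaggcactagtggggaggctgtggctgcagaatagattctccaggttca
Pcp4l1: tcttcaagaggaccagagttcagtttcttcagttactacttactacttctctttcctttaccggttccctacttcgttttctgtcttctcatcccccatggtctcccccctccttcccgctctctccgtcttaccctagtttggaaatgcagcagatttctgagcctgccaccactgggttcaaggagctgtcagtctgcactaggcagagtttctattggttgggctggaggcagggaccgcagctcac
Kirrel2: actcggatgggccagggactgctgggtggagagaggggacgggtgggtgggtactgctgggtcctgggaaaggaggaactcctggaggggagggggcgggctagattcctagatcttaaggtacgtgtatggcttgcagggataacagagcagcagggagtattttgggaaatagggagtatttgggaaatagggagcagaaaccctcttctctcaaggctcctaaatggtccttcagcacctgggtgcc
Pcdh10: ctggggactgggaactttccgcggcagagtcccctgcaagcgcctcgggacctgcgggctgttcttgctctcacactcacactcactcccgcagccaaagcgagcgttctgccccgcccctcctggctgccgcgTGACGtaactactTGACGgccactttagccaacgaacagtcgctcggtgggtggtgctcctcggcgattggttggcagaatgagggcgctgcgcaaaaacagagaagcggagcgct

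The motifs, searched on both strands, were the cAMP response element TGACGTCA, its core TGACG (which also lies inside the full element), the palindromic site of the Olf/Ebf factors of olfactory neurons, and the homeodomain core TAATTA. The core TGACG was found in 20% of the promoters of the 10 named genes that fell, against 17.8% of all 32851 promoters of the same length. It occurred in Pcdh10, whose promoter holds 2, with first bases at -116 and -103 from the start, and in Pde6h. The full element was found in 0 of the 10 and in 1.55% of all promoters, the Olf/Ebf site in 0 and 0.779%, and TAATTA in 1, Chil4, and 4.84%. Among the 28 promoters of named genes that rose, 3 held TGACG and 2 held TAATTA. The promoters of S100a5, Pcp4l1 and Kirrel2 held no match, which says only that these letters are not in these windows.

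More probes rose than fell, and the named ones encode proteins of many kinds. Of the 53 that rose, 15 are unnamed here and 32 carry the symbol of an established gene, 51 differed by at least 2-fold, and the median difference was 1.74. The largest named rises on this scale were in Afm, Golm1, Lbx1 and Uchl4, an order that changed with an offset of 50. Afm, a vitamin E binding protein of plasma, read 8.37, 7.88 and 8.45 on the occluded side, 5.36, 4.78 and 4.46 on the open side and 5.13, 5.16 and 6.43 in normal mucosa. It rose by 3.36 ± 0.31 log2 units (limma adjusted p = 0.0099), and its difference was 2.12 with an offset of 50. Golm1, a membrane protein of the Golgi apparatus, read 9.83 in mouse 1 and 10 in both other mice against 6.61, 7.07 and 6.73 and rose by 3.14 ± 0.18, with the smallest adjusted p of all probes (0.0012). Golm1 was the named gene whose call held under the most alternatives, 11 of 14, but not without replicate 1 (adjusted p = 0.41). The call was that of its dimmer probe, while its brighter probe lay lower on the occluded side (-1.0 ± 0.17). Afm passed without replicate 2 (0.038) and not without replicate 1 or 3 (0.60 and 0.063).

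Lbx1, a homeobox factor, read 7.31, 6.36 and 6.77 against 4.47, 3.38 and 3.32 and rose by 3.09 ± 0.32 (limma adjusted p = 0.010), and it lay below noise on 4 of 9 open arrays. Uchl4, a ubiquitin hydrolase, read 7.17, 7.53 and 7.04 against 3.74, 4.20 and 4.59 and rose by 3.07 ± 0.34 (adjusted p = 0.015), below noise on 3 of 9 open arrays. Both probes were dim on the open side, and with an offset of 50 their differences were 1.35 and 1.53, under those of Golm1 (2.66), Zfp157 (2.48), Slc36a3 (2.13) and Mrgprb3 (1.94). The other named rises of 1.8 or more were those of Dynap (2.64 ± 0.29), the zinc finger gene Zfp157 (2.57 ± 0.29), the amino acid transporter family member Slc36a3 (2.49 ± 0.29), the splicing factor gene Luc7l (2.26 ± 0.33), the Mas-related receptor gene Mrgprb3 (2.23 ± 0.22), the cytochrome P450 gene Cyp3a25 (1.82 ± 0.23) and Trub1, a pseudouridine synthase (1.80 ± 0.18). Zfp157 was the brightest of these, at 12.01, 11.90 and 12.35 against 9.89, 9.86 and 8.79. Cyp3a25 was the dimmest, below noise on 5 of 9 open arrays, and its difference was 0.33 with an offset of 50, while those of Dynap and Luc7l were 1.51 and 1.56. Without replicate 1 all of these calls were lost, and without replicate 3 also, except that of Golm1 (adjusted p = 0.031).

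Among the smaller rises were genes of known cell types or processes. Spi1, a transcription factor of myeloid cells, read 9.67, 9.53 and 9.84 on the occluded side and 8.57, 8.42 and 8.58 on the open side (1.16 ± 0.15, limma adjusted p = 0.023). The collagen gene Col6a2 read 8.91, 8.14 and 8.42 against 7.42, 7.12 and 7.34 (1.20 ± 0.18, adjusted p = 0.046). Entpd2, an ectonucleotidase that breaks down extracellular ATP, read 10.61, 10.82 and 10.55 against 9.41, 9.24 and 9.27 (1.35 ± 0.19, adjusted p = 0.035). All 3 genes lost their call without any 1 of the replicates (adjusted p between 0.065 and 1.0). Related genes did not rise with Spi1 and Col6a2 as a set. The 10 measured markers of myeloid and lymphoid cells had a median of -0.05, and the 36 genes of extracellular matrix and bone had -0.17. The remainder included Selenoo, Tm6sf2, Tnfrsf11a, Cux1, Rai1, Pip5k1b, Pigs, Mtfmt, Oc90, Sfmbt1 and Ess2, with differences between 1.23 and 1.78. Of these, the calls of Rai1 and Sfmbt1 held without replicate 2 (both adjusted p = 0.044), and none held without replicate 1 or 3. The normal mean was nearer the open than the occluded side for 50 of the 53 risen probes, and 54.2% of all probes had a normal mean nearer the open side.

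The other probes of the same genes were set beside the called ones. Of the genes that rose, 11 had a further readable probe, 12 such probes in all, and 0 of these reached 50% of the difference of the called probe; 7 had the same sign, and the median of the 12 was 0.09. The further probes with the same sign and an unadjusted p under 0.05 were those of Sfmbt1 (0.46 ± 0.15 beside 1.74 ± 0.18) and 1 of the pair of Ess2 (0.73 ± 0.32 beside 1.78 ± 0.21). The further probe of Uchl4 differed by 0.28, that of Trub1 by -0.01, that of Rai1 by -0.01 and that of Cux1 by -0.07. The second, brighter Golm1 probe lay lower on the occluded side (-1.0 ± 0.17, adjusted p = 0.083), with means of 9.75 and 10.75. The rise of Golm1 thus holds for 1 of its probes, the dimmer one. Of the genes that fell, Chil4 and Slc8a1 had further readable probes, and these lay below 0 in every case, by nearly the called size in all but 1 Slc8a1 probe. The probes of a gene read different stretches of its transcripts, and why they differ was not tested.

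**Figure D3:**
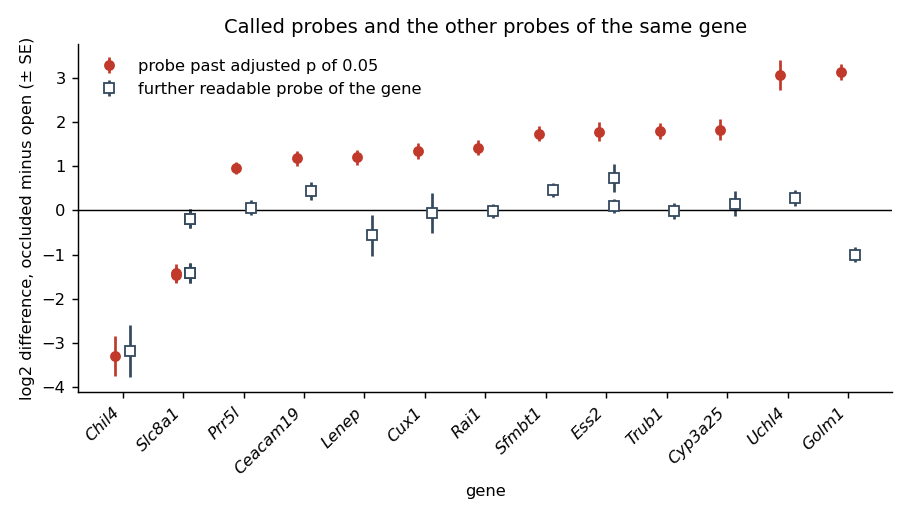
Log2 difference, occluded minus open, with its SE (vertical axis) for genes (horizontal axis) with a probe past an adjusted p of 0.05 (red circles) and at least 1 further readable probe (open squares). Further probes of Chil4 and of Slc8a1, except 1 at -0.19, lie beside the called ones, while those of the risen genes lie between -1.0 and 0.73.

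Genes read alike by all of their probes gave another view that does not rest on 1 probe. Of 3045 genes with at least 2 readable probes, 283 had any probe with an unadjusted p under 0.05, and 14 (0.46%) had all probes at that level with 1 sign, 7 higher and 7 lower. Across the 2541 genes with exactly 2 readable probes the differences of the probes correlated with r = 0.17, over genes that share the same arrays. Beside Chil4 the lower ones included Epha7, a receptor of ephrins that guides axons, at -1.46 (adjusted p = 0.054) and -1.30 (adjusted p = 0.059). The brighter Epha7 probe read 7.03, 6.73 and 6.03 against 8.01, 7.83 and 7.85. Sema3e, a secreted guidance cue, had -1.15 and -0.83, and Syt4, a synaptotagmin of vesicles, -0.60 and -0.34. The brighter Syt4 probe had means of 11.59 (occluded), 12.20 (open) and 11.56 (normal), so normal mucosa was level with the occluded side. For both Epha7 probes the normal mean lay nearer the open side. Trim45 had -1.06 and -0.88, Tnfsf10 -0.59 and -0.40, and the cytoskeletal gene Epb41l2 -0.49 and -0.33.

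The 7 higher genes included 3 of neurons. Efna5, an ephrin ligand of axons, had 0.88 and 0.90, and its brighter probe read 15.29, 15.52 and 15.79 against 14.94, 14.56 and 14.47. Ppp3ca, the catalytic subunit of the calcium-dependent phosphatase calcineurin, had 0.62 and 0.73, with 15.32, 15.13 and 15.05 against 14.86, 14.51 and 14.28. Calb2, the calcium-binding protein calretinin, had 0.59 and 0.73. The others were Lrrc39 (0.50 and 0.56), Sfmbt1 (0.46 and 1.74), Fanca (0.44 and 0.91) and Sort1 (0.40 and 0.55). Of the 14 genes, only Chil4 and Sfmbt1 had a probe past the adjusted threshold. Golm1 and Rapgef6 were the genes with probes past the unadjusted level in opposite directions.

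Genes whose expression in olfactory neurons is known to depend on odor activity lay on both sides of 0. This list of 23 measured genes was drawn up with earlier results of these data in view. Its counts, and its shares set against all genes, are therefore a description and no support. Of the 23, 4 fell (S100a5, Kirrel2, Pcp4l1 and Pcdh10), 0 rose, and 7 lower and 3 higher ones had an unadjusted p under 0.05. In 9 the occluded values lay wholly below the open ones and in 2 wholly above, together 47.8% of the list against 6.88% of all genes. The median difference was -0.19, with -0.10, -0.11 and -0.32 in the 3 mice, against 0.01 over all genes. The list was not split by the direction in which a gene depends on activity, so its median gives no common direction. Kirrel3, of the same family as Kirrel2, read 12.50, 12.78 and 12.90 against 11.83, 11.57 and 11.91, the opposite direction to Kirrel2 (0.96 ± 0.15, limma adjusted p = 0.064). Epha7 and Efna5, a receptor and a ligand that bind each other, also lay on opposite sides of 0. Lrrc3b (-1.14 ± 0.25, adjusted p = 0.19) and the scaffold gene Dlg2 (-1.07 ± 0.23, adjusted p = 0.20) lay lower in all 3 mice, but a second Dlg2 probe differed by -0.11. The histone gene H2bc21, known for a strong dependence on odor activity, read 10.52, 11.38 and 11.21 against 10.08, 10.83 and 11.08 (0.37 ± 0.31, adjusted p = 0.99).

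**Figure D4:**
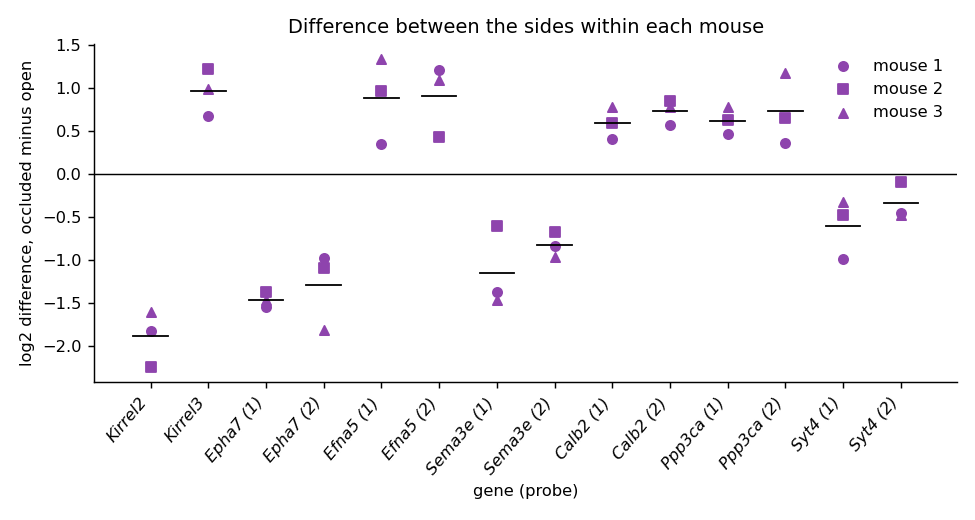
Log2 difference between the sides of each mouse (vertical axis; circle, square and triangle are mice 1, 2 and 3) for single probes of Kirrel2 and Kirrel3 and for each readable probe of 6 further neuronal genes (horizontal axis); black bars are means. Kirrel2, both Epha7, Sema3e and Syt4 probes lie below 0 in every mouse, and Kirrel3, Efna5, Calb2 and Ppp3ca above.

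Most genes of the transduction cascade lay higher behind the closed nostril, none of them past the adjusted threshold. Of 20 measured, 15 were above 0 and 7 higher against 0 lower ones had an unadjusted p under 0.05 (35% of the list, against 5.55% of all genes). The median difference was 0.24, and it was 0.24, 0.26 and 0.34 in the 3 mice. Ric8b, which assists Golf, read 14.42, 14.92 and 14.86 against 13.99, 13.30 and 14.32 (0.86 ± 0.24, limma adjusted p = 0.41). Pde4a, a phosphodiesterase that degrades cAMP in the cell body, read 11.26, 11.34 and 11.41 against 10.98, 10.48 and 10.40 (0.72 ± 0.20, adjusted p = 0.42). The values of Cnga2 were 15.85, 15.75 and 15.93 against 15.58, 15.27 and 15.12 (0.53 ± 0.17, adjusted p = 0.55), with saturation on 3 of 9 occluded arrays. Adcy3 differed by 0.34 ± 0.13, Stoml3 by 0.47 ± 0.19 and Gnal by 0.47 ± 0.19. The sides did not overlap for Ric8b, Pde4a, Slc24a4, Cnga2, Adcy3 and Stoml3, and overlapped for Gnal. The 6 markers of mature olfactory neurons measured, which share Cnga2, Adcy3, Stoml3, Gnal, Gng13 and Omp with this list, had a mean log2 intensity between 14.93 and 15.17 in the occluded samples and between 14.66 and 14.80 in the open samples. The part of neuron content in these differences was not tested. A separate list of 20 other genes of mature neurons had a median of -0.01, with Rtn1 at 0.51 ± 0.18 (adjusted p = 0.60), and one of 21 genes of immature neurons had -0.16, with 17 below 0 and 0 at an unadjusted p under 0.05.

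The odorant receptors, measured for 689 genes, were spread on both sides of 0, and 0 passed. With an unadjusted p under 0.05 there were 60 higher and 15 lower, 10.9% of the receptors against 5.55% of all genes. The median was 0.11, with 435 above 0, but it differed between the mice, at 0.05, -0.01 and 0.29, and it was 0.02 without replicate 3. Olfr31 had the smallest p and read 9.19, 8.77 and 9.03 against 8.14, 7.82 and 7.88 (1.05 ± 0.18, limma adjusted p = 0.081). Olfr1161 read 6.85, 6.41 and 6.57 against 5.81, 5.37 and 4.70 (1.32 ± 0.23, adjusted p = 0.092), and Olfr825 lay the other way, at 6.15, 6.32 and 6.38 against 6.98, 7.10 and 6.82 (-0.69 ± 0.14, adjusted p = 0.16). Receptor genes are alike in sequence, so a probe may read more than 1 of them. The 82 vomeronasal receptors had a median of 0.05, with 0.16, -0.52 and 0.37 in the 3 mice, and of these 82 only 47 were readable.

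Immediate early genes, which neurons and other cells switch on within minutes of stimulation, included 4 of 30 that lay lower with an unadjusted p under 0.05 (13.3%, against 2.16% of all genes) and 0 higher. None passed. Fos read 9.15, 8.29 and 8.38 on the occluded side and 9.30, 9.40 and 10.47 on the open side (-1.12 ± 0.32, limma adjusted p = 0.43), while a second, dimmer Fos probe differed by 0.30, with means of 5.81 and 5.51. Fosb read 4.38, 4.74 and 4.39 against 5.40, 5.52 and 6.05 (-1.15 ± 0.34, adjusted p = 0.47), and the values of Nr4a1 were 4.96, 5.61 and 4.64 against 5.85, 6.49 and 7.18 (-1.44 ± 0.42, adjusted p = 0.46). For Fosb, Nr4a1 and the brighter Fos probe each occluded value lay below each open value, with the highest open value in mouse 3. The list's median, -0.08, was 0.09, -0.18 and -0.38 in the 3 mice.

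Of the inflammatory genes 35 lay below 0 and 19 above, and none passed. Of 54 measured, 9 were lower and 2 higher with an unadjusted p under 0.05 (20.4%, against 5.55% of all genes), and the median was -0.15, with -0.06, -0.11 and -0.48 in the 3 mice. The neutrophil-attracting chemokine Cxcl2 read 3.71, 3.53 and 3.77 against 4.95, 4.90 and 6.08 (-1.64 ± 0.25, limma adjusted p = 0.054), and the related Cxcl1 read 7.83, 7.75 and 7.86 against 9.12, 8.43 and 9.72 (-1.28 ± 0.26, adjusted p = 0.16). Cxcl2 lay below noise on 6 of 9 occluded arrays, so the size of its difference is uncertain. Its normal mean was 4.43, against 3.67 on the occluded and 5.31 on the open side. The normal values of Cxcl1 were 7.91, 8.32 and 7.73, nearer the occluded side. The cytokine genes Il1b (-0.54 ± 0.17) and Il33 (-0.46 ± 0.14) lay lower without overlap. In the other direction were the chemokine Ccl4, at 8.45, 7.77 and 8.10 against 7.37, 7.16 and 7.40 (0.80 ± 0.16, adjusted p = 0.16), and the B cell gene Ms4a1 (0.73 ± 0.19, adjusted p = 0.33). The 10 measured markers of myeloid and lymphoid cells had a median of -0.05, with 5 above and 5 below 0.

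Among the secretory and basal cell genes Chil4 alone passed the threshold. Of 38 measured genes of glands and nasal secretion 1 fell, Chil4, and 28 lay below 0, with a median of -0.11. Pigr, the receptor that carries immunoglobulin into mucus, read 10.81, 10.34 and 10.04 against 11, 11.04 and 11.61 (-0.82 ± 0.23, limma adjusted p = 0.42), and Bpifb6 differed by -0.32 ± 0.13 (adjusted p = 0.77). The 12 genes of horizontal basal cells, the reserve stem cells of the epithelium, had a median of -0.19, and mouse 3 lay lowest (-0.16, -0.06 and -0.48). Of the 12, 10 lay below 0, and 2 keratin genes lay lower with an unadjusted p under 0.05 (16.7%, against 5.55% of all genes). Krt14 read 13.79, 13.45 and 13.47 against 14.14, 13.74 and 13.98 (-0.38 ± 0.15, adjusted p = 0.74), with overlap, and Krt17 read 11.38, 11.63 and 11.50 against 11.93, 11.77 and 11.88 (-0.36 ± 0.16, adjusted p = 0.80), without overlap. The 23 genes of basal progenitors and the cell cycle had a median of -0.11, and Cdk1 lay higher (1.05 ± 0.35, adjusted p = 0.58), most of it in mouse 1, at 6.05 against 3.93.

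Of the genes of the supporting cells and of metabolism none passed the threshold. The 18 genes of sustentacular cells had 0 with an unadjusted p under 0.05 and a median of -0.04. Of 41 genes of xenobiotic metabolism, which the mucosa uses to clear inhaled chemicals, 3 lay higher at that level (7.32%, near the 5.55% of all genes), the sulfotransferase Sult1d1 (0.49 ± 0.14, limma adjusted p = 0.43), Cyp2c23 (0.55 ± 0.18, adjusted p = 0.55, with a second probe at -0.17) and the epoxide hydrolase Ephx1 (0.54 ± 0.23, adjusted p = 0.77). Sult1d1 read 14.03, 14.31 and 14.21 against 13.51, 13.80 and 13.78. Of 24 genes of ion and water transport, Car14 (0.87 ± 0.27, adjusted p = 0.52) and Slc26a7 (0.36 ± 0.12, adjusted p = 0.58) lay higher at the unadjusted level (8.33%), and Slc26a7 read 11.30, 11.28 and 11.37 against 10.93, 10.91 and 11.03. The lists of hypoxia-inducible genes (20), apoptosis (17), cilia (29) and the mitochondrial respiratory chain (46) had 0 genes at that level and medians between -0.11 and 0.02. Of 25 genes of antioxidant defence 1, Sod3, was at that level (0.58 ± 0.19, adjusted p = 0.59).

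Lists of channels, synapses, axon guidance, calcium sensors and matrix had between 2.63% and 7.14% of their genes at an unadjusted p under 0.05, near the 5.55% of all genes, and that of cadherins had 11.8%. The pacemaker channel gene Hcn2 read 13.78, 13.61 and 13.60 against 13.28, 12.82 and 12.61 (0.76 ± 0.18, limma adjusted p = 0.27), and the potassium channel gene Kcnma1 read 11.25, 11.26 and 11.12 against 11.88, 11.54 and 11.42 (-0.40 ± 0.15, adjusted p = 0.67), with a second probe at 0.11. Of the 33 sodium and potassium channel genes no other reached that level. Of 34 cadherins and protocadherins, Pcdh10 fell, while Cdh22 (0.81 ± 0.17, adjusted p = 0.17), Cdh15 (0.71 ± 0.19, adjusted p = 0.40) and Cdh18 (0.55 ± 0.19, adjusted p = 0.60) lay higher. Of 38 axon guidance genes Sema3e and of 27 presynaptic genes Syt4 were at the unadjusted level, both lower; Epha7 and Efna5 are counted in the odor-activity list instead. Of 28 calcium sensors and calmodulin pathway proteins, Ppp3ca lay higher and Vsnl1 lower (-0.37 ± 0.16, adjusted p = 0.80), with S100a5, Pcp4l1 and Calb2 counted in the odor-activity list instead. Of 36 genes of extracellular matrix and bone, Col6a2 rose, and the matrix protease gene Mmp14 lay lower, at 8.36, 8.58 and 8.84 against 9.78, 10.04 and 10.18 (-1.40 ± 0.36, adjusted p = 0.35). The median of this list was -0.17, with 26 genes below 0, and it was 0.27 in mouse 1 and -0.39 in both other mice.

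**Figure D5:**
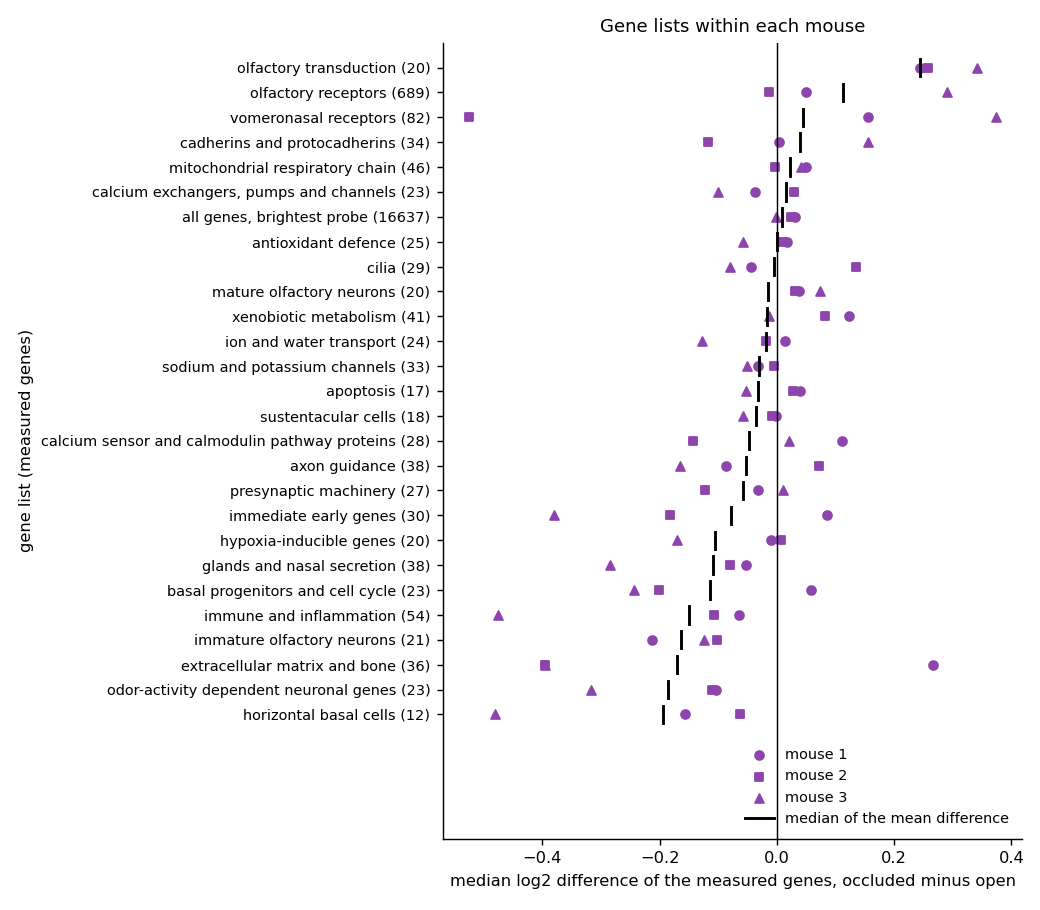
Median log2 difference, occluded minus open, of the measured genes of each list (horizontal axis; lists with their number of genes on the vertical axis) in mice 1, 2 and 3 (circle, square, triangle) and for the mean difference (black bar). The transduction list lies between 0.24 and 0.34 in the 3 mice, the odor-activity list between -0.10 and -0.32, and the matrix list has opposite signs in mouse 1 and the others. The lists were chosen with earlier results of these data known.

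Markers of cells that the dissection could have carried along showed no probe past the threshold. The medians of the lists for vomeronasal neurons, olfactory bulb or brain, glia, respiratory epithelium, blood, endothelium, muscle, bone, myeloid and lymphoid, and microvillar cells lay between -0.14 and 0.07. Of 9 vomeronasal markers, Trpc2 (0.84) and H2-M9 (0.76) lay higher at an unadjusted p under 0.05 (22.2%, against 5.55% of all genes). In this list 5 genes lay below 0, and the median was -0.14, with -0.25, -0.01 and 0.13 in the 3 mice. The brain, glia and myeloid and lymphoid lists each had 1 gene higher at that level, and the muscle list had 1 lower. The sustentacular markers had a mean log2 intensity between 11.52 and 12.37 in the occluded samples and between 11.58 and 12.46 in the open samples. The part of these cells in the results was not tested.

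Over the 6 values of both sides, the named genes whose level followed that of S100a5 most closely were Mmp14 (Pearson r = 0.99), Olfr825 and Slc24a1 (both 0.97), Hspa12a (0.97) and Invs (0.96). This likeness is a description over 6 values that fall into a low and a high side, and the S100a5 probe was saturated on 5 of 9 open arrays, which caps its open values. The difference between the sides ranged from -0.17 for Invs to -1.75 for Slc24a1, the only one of the 5 past the adjusted threshold.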

How the data were processed

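Total RNA of olfactory mucosa was labelled with Cy5 and hybridised to 27 arrays with 1 sample each, per the labels' protocols. The authors deposited linear intensity values, from which background had been subtracted, as the values below 0 show; no label names the scanner or a normalization. Before log2, values of 0 or less were replaced by 0.912, the smallest positive one. Log2 array medians differed by 1.15, so arrays were quantile normalized, and the 3 repeat arrays of a replicate were averaged. limma 3.58.1 (with R 4.3.3, statmod 1.5.0 and, to read files, data.table in version 1.17.8) fitted the 9 values of 3 groups with the mouse as a random block (consensus correlation 0.389), two-sided, with Benjamini-Hochberg adjustment over all 29922 probes and a threshold of 0.05. The fit was tested on simulated data.

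The design text gives the sides as repeated measures. Deviations from the group means correlated at 0.516, -0.0044 and 0.142 in the 3 pairs, and between -0.426 and 0.386 for unlike numbers, so the values do not settle the pairing by number.

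A probe's noise limit is 3 times the root mean square of the values below 0 of an array, and saturation is 99.5% of its highest value. A probe is readable if it was above noise on at least 6 of 9 arrays of a side and not saturated on more than 6 of 9 of both. Symbols come from the platform annotation (21020 probes with 1 symbol, 0 with several, 8902 unnamed here); 16633 of 16675 were found among RefSeq genes of GRCm38.p6, used for names, and 2728 were updated. For 3566 genes with several probes the brightest stands for the gene.

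Members and lists were chosen with earlier results of these data known. Named were all fallen probes and the 10 largest rises past the threshold with an established symbol and 1 sign in the 3 mice, genes moved by all probes, and up to 3 members of a list with the smallest p. Trub1, the smaller rises, Il1b and Il33 were named after their values were seen.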

Additional observations from a re-analysis of the deposited data

How the results depend on the processing

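The count of 66 probes past the threshold rested on how the pairing, the scaling and the spread were handled. With each mouse as a fixed replicate block it was 0, with no replicate block 3, with a random replicate block over the 6 values of both sides 14, with the same 6 values also quantile normalized without the normal arrays 14, with median centring 37, without normalization 0, and with a trended, robust prior 102. Leaving out 1 replicate gave between 0 and 35. With the median of repeat arrays, the dimmest 30% of probes left out, a floor of 16 or an offset of 50 the count stayed within 1.5 times 66. The 14 genes read alike by all their probes became 5 without normalization, 8 with median centring and between 6 and 28 with 1 replicate left out. The 2004 probes without overlap became 995 without normalization. Of the named genes' values under the alternatives, 1086 kept their direction and their side of the threshold, 298 lost the call, 18 gained it and 2 changed sign, both of uncalled genes: Chil3 ranged from -0.944 to 0.0272 with 1 replicate left out (the latter without replicate 3), and the saturated Omp probe was at -1.52e-05 with the median of repeat arrays. Of the list medians, 534 moved by less than the spread between mice and 36 moved by more. Precision is limited by 3 mice and, for dim probes, by signal over background: with an offset of 50 the difference of Cyp3a25 was 0.33 in place of 1.82.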
